A study of Sus scrofa with 14 samples.

Results

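The mitochondrial ribosomal proteins measured here are 37 genes of 10882 that the arrays' annotation names by 1 symbol. They are the symbols that begin with MRPL or MRPS followed by a digit, 24 of the large subunit (MRPL) and 13 of the small (MRPS), each represented by the array row with the highest mean. The RefSeq annotation of the pig assembly Sscrofa11.1 holds 77 such symbols, 48 MRPL and 29 MRPS. All 37 are among them, and the other 40 are not analysed here. Total RNA came from 7 unrelated male pigs of a Large White and Landrace cross, weaned, 5 to 6 weeks old and on average 11.1 kg in weight, fed a common feed for 5 days. From each stomach 1 sample of oxyntic mucosa (OXY, beside the greater curvature) and 1 of pyloric mucosa (PYL, beside the sphincter) was hybridized, 14 whole-transcript porcine arrays in all. The study describes the samples as transmural, so they can hold muscle and connective tissue beside the mucosa. No treatment was compared, and the question was how both mucosae of a stomach differ.

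Mitochondrial ribosomes make the few proteins that mitochondrial DNA still encodes, which are core subunits of the respiratory chain and of ATP synthase. Their own proteins are all encoded in the nucleus, made in the cytosol and imported, and then join the mitochondrial rRNAs in a small subunit, which decodes the mRNA, and a large subunit, which forms the peptide bond. The oxyntic gland is known for its parietal cells, which are densely packed with mitochondria that supply acid secretion with ATP, whereas the pyloric gland is mainly mucous and endocrine.

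The deposited values are intensities, which were log2-transformed here. The median log2 value of an array lay between 4.83 and 4.92 in pigs 1 to 3 and between 5.63 and 5.73 in pigs 4 to 7, which makes 2 sets of arrays. The log2 values of pigs 1 to 3 all fell on 2 decimals (100%). On an array of pigs 4 to 7 at most 0.051% did. No pig has its arrays in different sets, and with the pig as a term of the model all changes are taken within pigs. The pig term removes a shift between the sets but not a difference in how far their values are spread. The labels were checked with marker genes. Of 8 measured parietal cell markers, 7 were higher in OXY and CASR was higher in PYL, and their summed intensity was 8241 to 13263 in OXY and 133 to 276 in PYL. Of 4 measured chief cell markers, 3 were higher in OXY. The other, GIF, did not pass (OXY minus PYL -1.49, adjusted p = 0.075 from limma) but was higher in PYL in all 7 pigs. Neither of 2 surface mucous markers passed, with OXY minus PYL of -0.16 for GKN1 and -0.14 for GKN2. GKN1 was higher in PYL in 5 pigs and GKN2 in all 7. Gastrin (GAST) and somatostatin (SST), hormones of the pyloric G and D cell, were both higher in PYL. None of 3 smooth muscle and 6 lymphocyte markers passed in either direction, and their sums overlapped between the mucosae, with 2323 to 7220 in OXY and 3241 to 9746 in PYL for smooth muscle and 1302 to 3547 and 1498 to 3586 for lymphocytes. Within the set of pigs 4 to 7, the pyloric arrays of pigs 4 and 7 differed from those of pigs 5 and 6. Over all rows the Spearman correlation was 0.989 between pigs 4 and 7 and 0.991 between pigs 5 and 6. Across these pairs it was 0.954 to 0.965. The correlations alone do not show which pair is the unlike one, and pigs 1 to 3 were not compared in this way. In PYL, GAST and SST summed to 1827 and 2311 in pigs 4 and 7, against 7006 and 7439 in pigs 5 and 6. The 3 smooth muscle markers summed to 9746 and 7981 in pigs 4 and 7, against 4209 and 3241 in pigs 5 and 6. On the pyloric arrays of pigs 1 to 3, whose values lay lower, these sums were 3926 to 6427 and 3611 to 4035. Smooth muscle sums were also high on the oxyntic arrays of pig 4 (7220) and pig 2 (6420). For the genes below, the change without pigs 4 and 7 is therefore given as well where it differs by more than 1.5 times or alters a call. In whole tissue, fewer cells of a type cannot be told apart from less RNA per cell.

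Part of the mitochondrial ribosome was more expressed in OXY and no measured gene of it passed towards PYL. An adjusted p under 0.05 was reached by 13 of the 37 genes, each with the higher level in OXY (limma with the pig as a block, Benjamini-Hochberg adjustment over all 27460 rows), and the other 24 did not pass. This is a share of 35.1%, where 6.88% of all rows and 8.52% of the named genes were higher in OXY and 4.46% and 5.11% were higher in PYL. At an unadjusted p under 0.05 the counts were 24 in OXY and 0 in PYL, against 15.4% of the named genes towards OXY and 12.8% towards PYL. The estimated change was above 0 for 35 genes and below 0 for 2, against 48.1% above 0 over all rows and 49.5% over the named genes. The median change of the 37 genes was 0.26 (log2), a 1.20-fold difference, whereas the median over all rows was -0.01. Between the genes the change ran from -0.27 for MRPS35 to 0.87 for MRPL3, the latter a 1.83-fold difference. Of the 8 parietal cell markers given above, 7 were also higher in OXY and CASR was higher in PYL. Their part in the difference was not tested.

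The count rests on a model that takes out the differences between pigs, those between the array sets included. No fit with a term for the set alone was run, so the part of each was not tested. Without the pig term 0 of the 37 genes passed, as the spread between pigs, that between the array sets included, then enters the error. Within pigs 1 to 3 alone 1 gene passed (MRPL3), within pigs 4 to 7 alone 5 (MRPL3, MRPL15, MRPL16, MRPL28 and MRPS18B), and without pigs 4 and 7 the count was 12 higher in OXY and 1 in PYL (MRPS35).

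**Figure D1:**
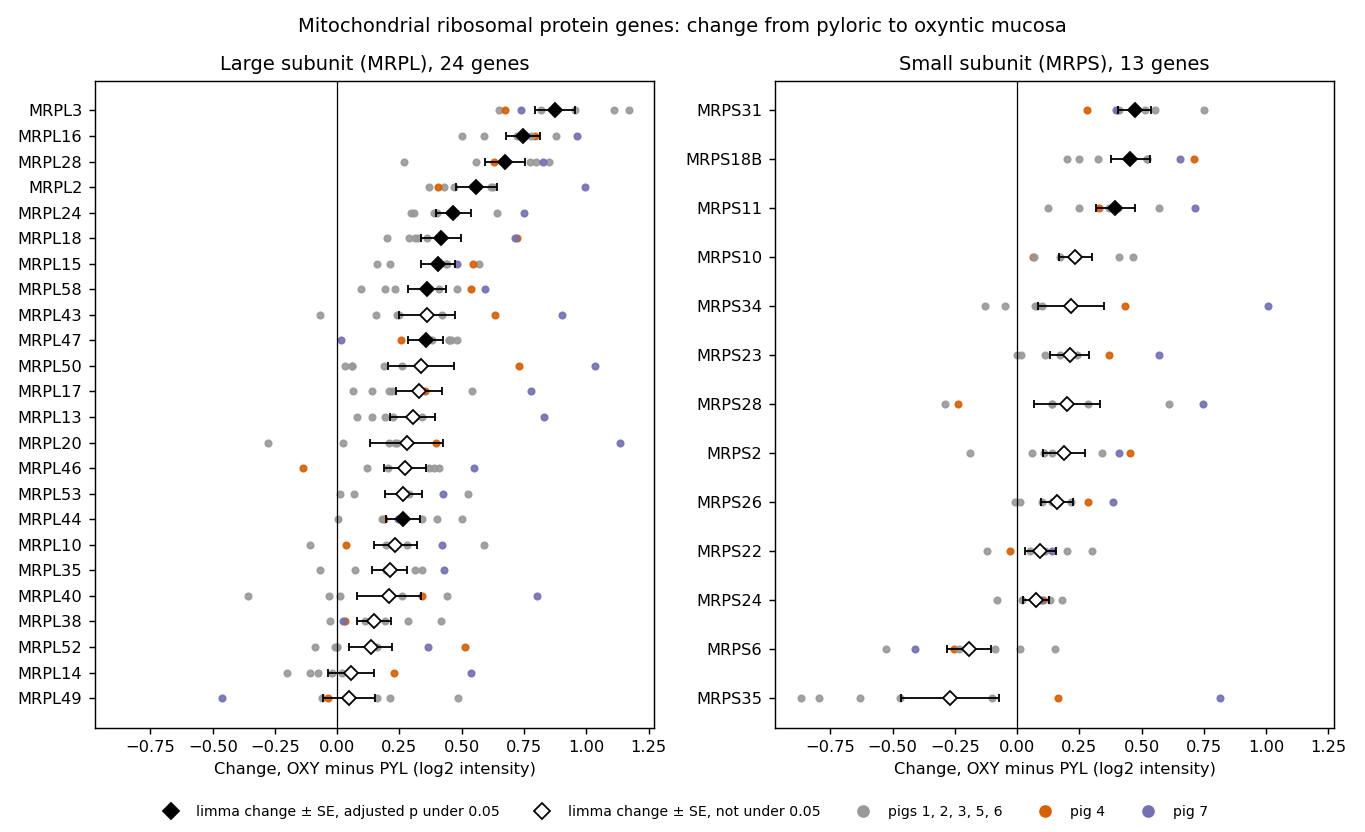
Change from PYL to OXY (log2 intensity) of the 24 large subunit and 13 small subunit genes. Diamonds are the limma change with its SE, filled for an adjusted p under 0.05, and dots are the 7 pigs, with pigs 4 and 7 in colour. Only MRPS6 and MRPS35 have a diamond below 0, and the widest spread over pigs is that of MRPS35.

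In the large subunit, 10 of 24 genes (41.7%) had a higher level in OXY, against 8.52% of the named genes, and the other 14 missed the threshold. The leading genes were counterparts of bacterial ribosomal proteins. MRPL3, which lies near the peptidyl transferase centre, showed the largest change. Its log2 intensity was 8.18, 9.33 and 9.44 (lowest, median and highest of 7 pigs) in OXY and 7.47, 8.49 and 8.74 in PYL. The ranges overlap over all pigs because the sets differ, but within each set every OXY array was above every PYL array. The differences within pigs 1 to 7 were 1.11, 0.65, 1.17, 0.67, 0.95, 0.82 and 0.74, so each pig showed the direction. Their estimate was 0.87 (SE 0.08, adjusted p = 3.4e-04 from limma).

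MRPL16, which lies beside the tRNA sites of the large subunit, ranked next by size and had the smallest adjusted p of the 37 genes. Its levels were 7.43, 8.37 and 8.71 in OXY and 6.93, 7.60 and 7.94 in PYL, again without overlap within either set. The 7 pigs differed by 0.88, 0.50, 0.59, 0.80, 0.78, 0.72 and 0.96. The smallest difference, that of pig 2, was still more than 0.4, and the change was 0.75 (SE 0.07, adjusted p = 3.2e-04), a 1.68-fold difference.

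MRPL28, a further counterpart of a bacterial protein, had levels of 6.99, 7.23 and 7.66 in OXY and 6.30, 6.64 and 7.01 in PYL. Its differences were 0.85, 0.80, 0.27, 0.63, 0.77, 0.56 and 0.83 in pigs 1 to 7, smallest in pig 3. The change was 0.67 (SE 0.08, adjusted p = 0.0013), and within each set the mucosae did not overlap. MRPL2, whose bacterial counterpart helps to form the peptidyl transferase centre, had 5.25, 6.05 and 6.83 in OXY and 4.82, 5.43 and 6.20 in PYL. The mucosae overlapped within a set, although each pig was higher in OXY. Its differences of 0.37, 0.43, 0.47, 0.41, 0.62, 0.62 and 1.00 were largest in pig 7, and the change was 0.56 (SE 0.08, adjusted p = 0.0037).

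MRPL24, whose bacterial counterpart binds early in assembly, had 7.17, 8.05 and 8.35 in OXY and 6.78, 7.58 and 8.02 in PYL. It differed by 0.64, 0.39, 0.31, 0.47, 0.40, 0.30 and 0.75 within the pigs (change 0.47, SE 0.07, adjusted p = 0.0043). MRPL15 had 6.67, 7.28 and 7.61 in OXY and 6.22, 6.73 and 7.18 in PYL. Both genes were separated between the mucosae within each set. For MRPL15 the differences were 0.57, 0.16, 0.21, 0.55, 0.44, 0.44 and 0.48, lower in pigs 2 and 3 than in the others, with a change of 0.41 (SE 0.07, adjusted p = 0.0069).

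**Figure D2:**
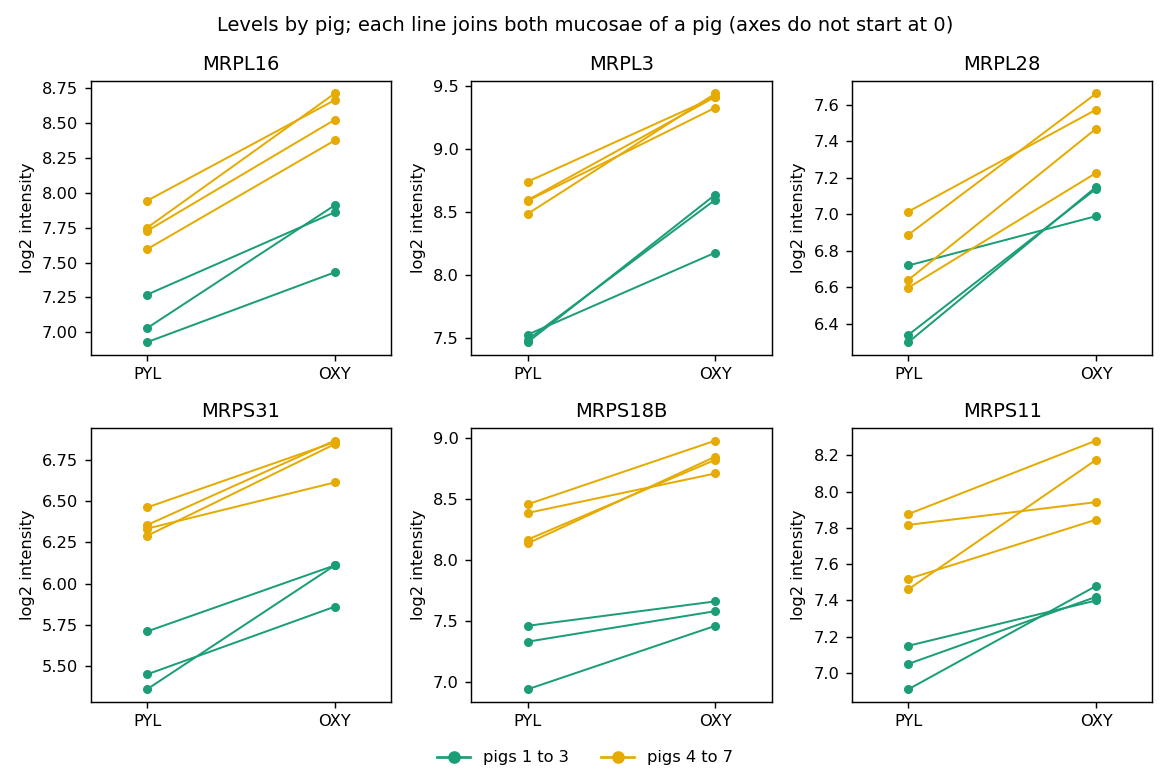
Log2 intensity in PYL and OXY of the 3 genes of each subunit with the smallest adjusted p. Each line joins both mucosae of a pig, and the colours are the array sets of pigs 1 to 3 and 4 to 7. All lines rise towards OXY, and pigs 4 to 7 lie higher than pigs 1 to 3 within each mucosa except in PYL for MRPL28.

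The other 4 large subunit genes that passed were MRPL18, MRPL47, MRPL58 and MRPL44. MRPL18, a protein of the central protuberance, changed by 0.42 (SE 0.08, adjusted p = 0.013), with its largest differences in pigs 4 and 7 (both 0.72) and 0.20 to 0.36 in the other pigs. MRPL47, a protein at the exit of the peptide tunnel, changed by 0.36 (SE 0.07, adjusted p = 0.014), with 0.01 in pig 7 and 0.25 to 0.48 in the others. MRPL58, also known as ICT1, is a peptidyl-tRNA hydrolase built into the human large subunit that frees stalled ribosomes. It changed by 0.36 (SE 0.08, adjusted p = 0.018), and it missed the threshold in the fits without pig 1 (adjusted p = 0.054), without pig 6 (adjusted p = 0.054) and without pigs 4 and 7 (adjusted p = 0.07). MRPL44, which has the fold of a ribonuclease and is mutated in a human cardiomyopathy, changed by 0.26 (SE 0.07, adjusted p = 0.044). It kept its call in only 1 of 7 fits that left out a pig (without pig 6), with an adjusted p of up to 0.11 without pig 1, and it missed the threshold without pigs 4 and 7 (adjusted p = 0.091) and with the methods' repeated-measures test (adjusted p = 0.061). The remaining 8 of the 10 kept their call in all 7 of these fits.

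Of the 14 large subunit genes that did not pass, 4 were nonetheless higher in OXY in all 7 pigs. These were MRPL53, MRPL17, MRPL13 and MRPL50. MRPL53 and MRPL17 came closest to the threshold, with changes of 0.26 (SE 0.07, adjusted p = 0.054) and 0.33 (SE 0.09, adjusted p = 0.055), and in both the mucosae did not overlap within either set. MRPL13 had a change of 0.30 (adjusted p = 0.071), of which pig 7 showed 0.83 and the other pigs 0.08 to 0.34, and without pigs 4 and 7 the change was 0.19. MRPL50 had 0.34 (SE 0.13, adjusted p = 0.15), with 0.73 in pig 4, 1.03 in pig 7 and 0.03 to 0.26 in the others, and without pigs 4 and 7 the change was 0.12.

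MRPL43 and MRPL46, the latter a protein of the central protuberance, had changes of 0.36 and 0.27 with the direction in 6 of 7 pigs (adjusted p = 0.079 and 0.083). MRPL43 had 0.20 without pigs 4 and 7. In MRPL46 that exception was pig 4, at -0.14, and in the fit without it the gene passed (adjusted p = 0.031). MRPL46 also passed without pigs 4 and 7 (change 0.30, adjusted p = 0.044). MRPL10, which anchors the stalk that recruits translation factors, had a change of 0.23 and MRPL35 one of 0.21 (adjusted p = 0.13 and 0.10). MRPL20 and MRPL40 had 0.28 and 0.21, and both spread widely, from -0.28 in pig 3 to 1.14 in pig 7 for MRPL20 and from -0.36 to 0.80 in the same pigs for MRPL40. These changes were 0.084 and 0.063 without pigs 4 and 7. The last 4 were MRPL38, MRPL52, MRPL14 and MRPL49, with changes of 0.15, 0.13, 0.05 and 0.05 and adjusted p of 0.22, 0.37, 0.77 and 0.83. MRPL14 binds an assembly factor that keeps the human subunits apart. In MRPL52, MRPL14 and MRPL49 the sign differed among pigs, with 3, 3 and 4 of 7 higher in OXY. MRPL14 had 9.20, 9.77 and 9.95 in OXY and 9.31, 9.53 and 9.97 in PYL, with its largest difference, 0.54, in pig 7. MRPL49 had 9.11, 9.90 and 10.52 in OXY and 9.17, 9.69 and 10.56 in PYL, with -0.46 in pig 7 and 0.48 in pig 6. In both genes the mucosae covered nearly the same range. The changes without pigs 4 and 7 were 0.012 for MRPL52, -0.078 for MRPL14 and 0.17 for MRPL49.

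In the small subunit, 3 of 13 genes (23.1%) had a higher level in OXY, against 8.52% of the named genes, and 10 missed the threshold. At an unadjusted p under 0.05 there were 6 towards OXY and 0 towards PYL, where 15.4% and 12.8% of the named genes were. MRPS31, a protein that bacterial ribosomes lack, led with levels of 5.86, 6.61 and 6.87 in OXY and 5.36, 6.29 and 6.46 in PYL. It was the 1 small subunit gene without overlap between the mucosae in either set. Its differences were 0.75, 0.41, 0.40, 0.28, 0.56, 0.51 and 0.40 in pigs 1 to 7, and the change was 0.47 (SE 0.07, adjusted p = 0.0029), a 1.39-fold difference.

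MRPS18B, 1 of several mammalian relatives of a single bacterial protein, had 7.46, 8.71 and 8.98 in OXY and 6.94, 8.14 and 8.46 in PYL. All pigs were higher in OXY, by 0.20, 0.52, 0.25, 0.71, 0.32, 0.52 and 0.65, with a change of 0.45 (SE 0.08, adjusted p = 0.0076). MRPS11, which lies on the platform of the subunit, had 7.40, 7.85 and 8.28 in OXY and 6.91, 7.46 and 7.88 in PYL. The 7 differences were 0.57, 0.37, 0.25, 0.33, 0.13, 0.41 and 0.71, lowest in pig 5 and highest in pig 7. Its change was 0.39 (SE 0.08, adjusted p = 0.014). These 3 genes kept their calls in each fit that left out 1 pig and without pigs 4 and 7.

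MRPS10, MRPS23 and MRPS26 followed without passing. MRPS10, which belongs to the head of the subunit, had 7.67, 8.77 and 9.27 in OXY and 7.43, 8.68 and 9.14 in PYL. Its differences were 0.41, 0.24, 0.17, 0.07, 0.07, 0.47 and 0.22 (change 0.23, SE 0.07, adjusted p = 0.061), all above 0. MRPS23 had 5.12, 6.61 and 7.27 in OXY and 4.95, 6.51 and 6.70 in PYL. It differed by 0.24, 0.17, 0.00, 0.37, 0.01, 0.11 and 0.57 (change 0.21, SE 0.08, adjusted p = 0.14), so pigs 3 and 5 showed next to no difference. MRPS26 had 7.20, 7.87 and 8.10 in OXY and 7.09, 7.65 and 8.06 in PYL, with differences of -0.01, 0.14, 0.10, 0.28, 0.21, 0.01 and 0.39 (change 0.16, SE 0.06, adjusted p = 0.16). Both MRPS23 and MRPS26 belong to the mitochondrial ribosome but not to the bacterial one. Their changes were 0.11 and 0.091 without pigs 4 and 7.

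Of the remaining 7 small subunit genes, 5 had an estimate above 0. MRPS34 and MRPS28 had 0.22 and 0.20, MRPS2 had 0.19, MRPS22, which is mutated in a human mitochondrial disease, had 0.09 and MRPS24, a protein at the entry of the mRNA, had 0.07. Their adjusted p lay between 0.21 and 0.43. MRPS24 varied least of the 37 genes over pigs, from -0.08 to 0.18, whereas MRPS34 ran from -0.13 to 1.01, the latter in pig 7. Without pigs 4 and 7 the changes of MRPS34 and MRPS2 were 0.015 and 0.092, and without pig 7 alone those of MRPS34 and MRPS28 were 0.084 and 0.11.

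MRPS6 and MRPS35 were the 2 genes with estimates below 0, and neither passed with all pigs. MRPS6 had a change of -0.19 (SE 0.09, adjusted p = 0.21) with differences of -0.09, 0.15, 0.01, -0.25, -0.23, -0.53 and -0.41, so it was below 0 in each of pigs 4 to 7. MRPS35, a protein of the mitochondrial ribosome only, had 7.17, 7.90 and 8.54 in OXY and 7.55, 8.04 and 8.86 in PYL. Its differences were -0.47, -0.87, -0.63, 0.16, -0.80, -0.10 and 0.81 in pigs 1 to 7, above 0 in pigs 4 and 7 and below 0 in the other 5. The change was -0.27 (SE 0.20, adjusted p = 0.45), and without pigs 4 and 7 it was -0.57 (adjusted p = 0.021). The smooth muscle and hormone markers of the pyloric arrays of these pigs stand above, and their part in this difference was not tested.

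In all, 18 of the 37 genes were higher in OXY in each of the 7 pigs, 14 of 24 in the large subunit and 4 of 13 in the small, where 7.94% of all rows and 9.64% of the named genes were so. A gene with 1 direction in all 7 pigs always has p = 0.016 in an exact two-sided sign-flip permutation test, the smallest that 7 pigs allow, so this p adds nothing to the count. Within both array sets, 8 genes (7 large and 1 small) had every OXY array above every PYL array, where 4.38% of all rows and 5.53% of the named genes did.

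The comparison of the subunits is a description, since the genes were chosen as a group. The median change was 0.32 in the large subunit, with quartiles of 0.23 and 0.41, and 0.20 in the small, with quartiles of 0.09 and 0.23. The difference of the medians was 0.12, and both stood above the median of all named genes (-0.00). Within pigs 1 to 7 the large subunit median was 0.38, 0.18, 0.22, 0.38, 0.20, 0.29 and 0.66. That of the small subunit was 0.14, 0.17, 0.13, 0.28, 0.08, 0.11 and 0.41. The large subunit was thus the higher one in each pig, by 0.005 in pig 2 and by up to 0.25 in pig 7 (mean 0.14, SD 0.09, n = 7). Without pigs 4 and 7 the difference of the medians was 0.13. Of the 24 large subunit genes, 18 to 23 were above 0 in a single pig, and of the 13 small subunit genes 8 to 12. With 24 of 48 and 13 of 29 RefSeq symbols measured, the medians need not hold for whole subunits.

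**Figure D3:**
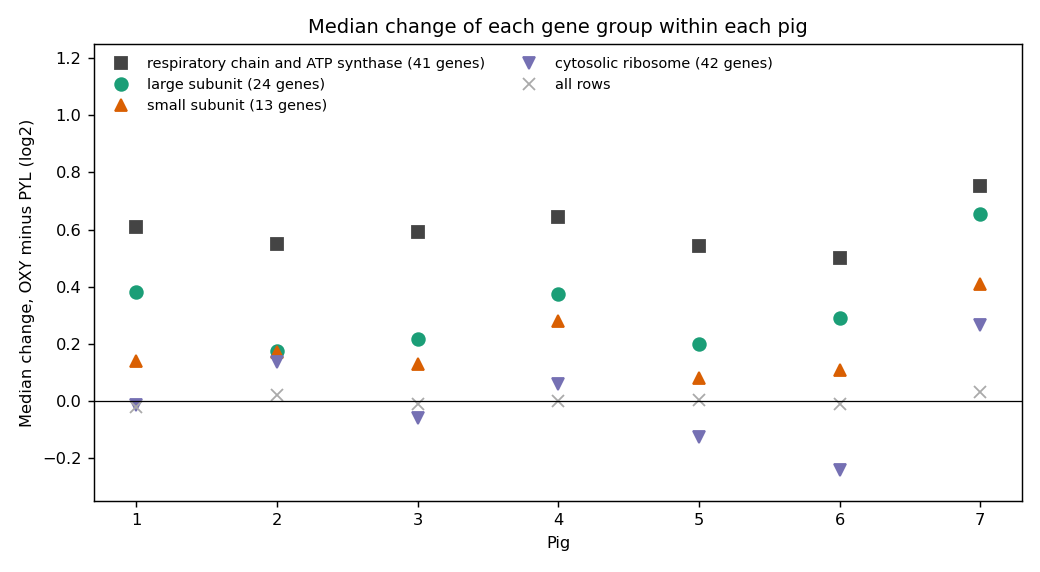
Median change from PYL to OXY (log2) within each pig for the large and small subunit, respiratory chain and ATP synthase, the cytosolic ribosome and all rows. The large subunit lies above the small in each pig, by 0.005 in pig 2, and both lie below respiratory chain and ATP synthase. Pig 7 has the highest median of each of the 4 gene groups.

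A grouping by descent, made after the values were seen, gave a like picture. The 20 genes with a counterpart in the bacterial ribosome had a median change of 0.32, with 9 (45%) higher in OXY. The 16 that only the mitochondrial ribosome holds had a median of 0.21, with 3 (18.8%) higher in OXY (MRPS31, MRPL44 and MRPL58). Of the named genes 8.52% were higher in OXY. Most genes with a bacterial counterpart here, 14 of 20, belong to the large subunit, so descent and subunit overlap. MRPS18B, which was higher in OXY, was left out of both, as its place is not clear.

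The order of the genes was shared between pigs to a varying degree. Over the 37 genes, the Spearman correlation of the mean change in pigs 1 to 3 with that in pigs 4 to 7 was 0.60 (Pearson 0.66), against 0.36 (Pearson 0.65) over all 10882 named genes. Among pigs 1, 2, 3, 5 and 6 the 10 pairwise correlations lay between 0.47 and 0.70. Pigs 4 and 7 correlated by 0.60 with each other, and by -0.09 to 0.41 with the other 5 pigs. These are correlations across genes of the same arrays, which are not independent replicates, and they are given as a description. Pigs 4 and 7 are those whose pyloric arrays differed from those of pigs 5 and 6, as described above.

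**Figure D4:**
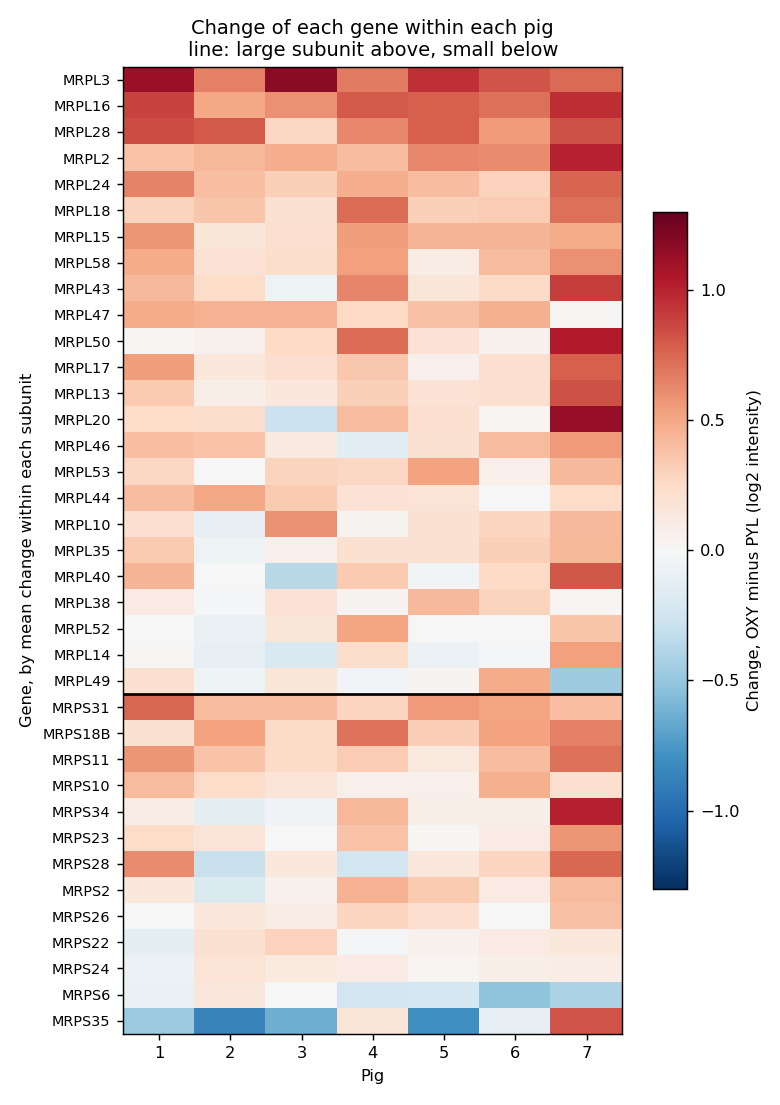
Change from PYL to OXY (log2 intensity) of each of the 37 genes in each of the 7 pigs, red for higher in OXY and blue for higher in PYL, ordered by mean change within each subunit. MRPL3, MRPL16 and MRPL28 are red in all pigs, and MRPS35 is blue in all but pigs 4 and 7.

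The ribosomal proteins differed most in pig 7. Its median over the 37 genes was 0.57, against 0.34, 0.17, 0.19, 0.33, 0.19 and 0.28 in pigs 1 to 6, and 35 of the 37 genes were above 0 in it, against 27 to 33 in the others. The medians of respiratory chain and ATP synthase genes (0.75) and of cytosolic ribosomal protein genes (0.27) were also highest in this pig. The medians of mitochondrial translation factors (0.052) and of assembly and rRNA modification genes (0.096), described below, were instead the lowest of the 7 pigs there, and that of mitochondrial DNA expression (0.16) was lower in pig 3 only. Smooth muscle markers had their lowest median change there, at -2.06 with 3 markers measured. Over the pigs TAGLN ran from -2.06 to 0.86 and CNN1 from -2.78 to 1.16, but ACTA2 only from -0.03 to 0.55. The part of these markers in the larger differences was not tested. ATP4A, the catalytic subunit of the proton pump of the parietal cell, changed by 7.52 in pig 7, within its range of 7.00 to 7.91 over the pigs. Without pig 7 the median change of the 37 genes was 0.22 and 12 passed.

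Of 47 other genes in 6 lists that make, serve or regulate the mitochondrial ribosome and its genes, 10 (21.3%) passed, each towards OXY, against 8.52% of the named genes. Of 4 ribosomal proteins under other names, DAP3, a GTP-binding protein of the small subunit, was higher in OXY by 0.31 (SE 0.07, adjusted p = 0.031), while GADD45GIP1, PTCD3 and CHCHD1 did not pass, with 0.17, 0.16 and 0.11. Among 9 translation factors 1 (11.1%) passed, TUFM, the elongation factor that brings aminoacyl-tRNA to the ribosome, with 0.44 (SE 0.07, adjusted p = 0.0064). The median of the 9 was 0.21, and 2 (MTFMT and MTRF1L) had estimates below 0.

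Of 11 enzymes that load mitochondrial tRNAs, 3 were higher in OXY, namely QRSL1 by 0.41 (adjusted p = 0.027), EARS2 by 0.37 (adjusted p = 0.0051) and AARS2 by 0.32 (adjusted p = 0.023). QRSL1 is a subunit of the enzyme that makes glutaminyl-tRNA, and EARS2 and AARS2 load glutamate and alanine. The median of the 11 was 0.11, and the 1 estimate below 0 was that of KARS (-0.19, adjusted p = 0.12), whose product also serves the cytosol. Of 12 genes of ribosome assembly and rRNA modification, 3 were higher in OXY and the median was 0.16. RBFA, a maturation factor of the small subunit, changed by 0.41 (SE 0.08, adjusted p = 0.01). MRM3, which methylates the rRNA of the large subunit, changed by 0.38 (SE 0.06, adjusted p = 0.0041), and TFB1M, which methylates that of the small subunit, by 0.30 (SE 0.06, adjusted p = 0.014).

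Mitochondrial DNA expression had 5 measured genes with a median of 0.29. TFAM, which packages this DNA and starts its transcription, was higher by 0.39 (SE 0.10, adjusted p = 0.037) and the terminator MTERF1 by 0.57 (SE 0.13, adjusted p = 0.029). Of 6 nuclear regulators of mitochondrial genes none passed by limma in either direction, with 2 at an unadjusted p under 0.05. ESRRA, an orphan nuclear receptor, had 0.39 (adjusted p = 0.063) and the factor NRF1 had -0.08 (adjusted p = 0.57). Several calls of these related genes depended on single pigs. Of the 7 fits that left out a pig, MTERF1 kept its call in 1, TFAM, DAP3 and QRSL1 in 2 each and AARS2 in 6. The highest adjusted p were 0.084, 0.096 and 0.078 for MTERF1, TFAM and QRSL1 and 0.069 for AARS2, each without pig 6, and 0.086 for DAP3, without pig 5. Without pigs 4 and 7, DAP3, QRSL1 and AARS2 did not pass (adjusted p = 0.095, 0.097 and 0.054). With the methods' repeated-measures test, TFAM, MTERF1, QRSL1 and DAP3 missed the threshold (adjusted p = 0.082, 0.083, 0.066 and 0.054) and the other 6 passed.

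**Figure D5:**
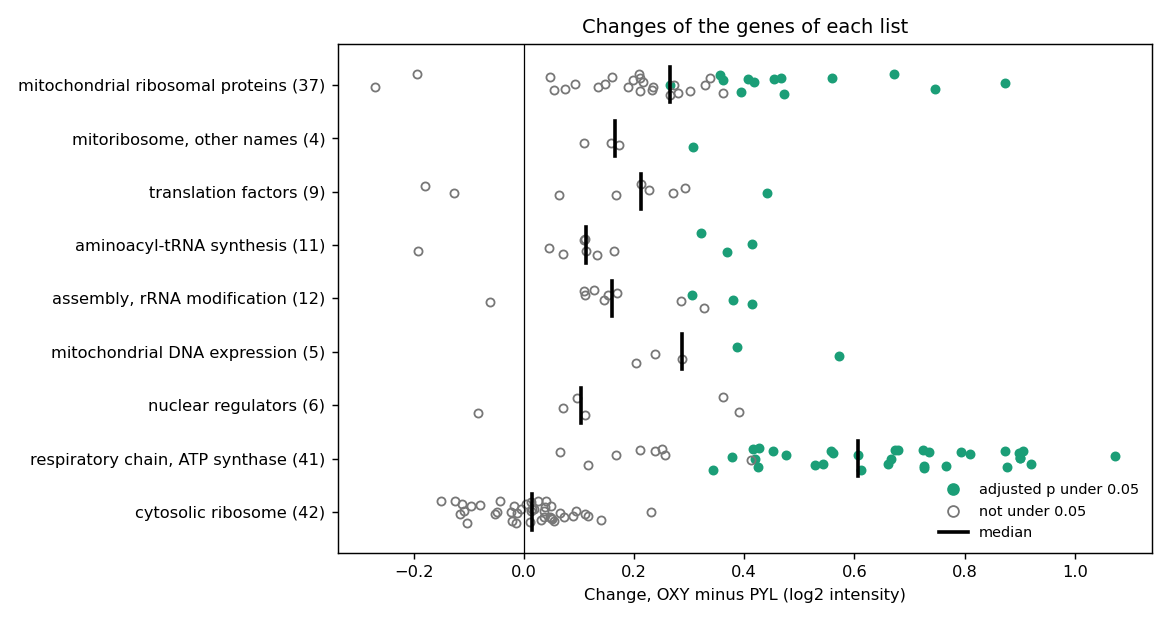
Change from PYL to OXY (log2 intensity) of each gene of the mitochondrial ribosome and of related lists, with the number of measured genes in brackets. Filled dots have an adjusted p under 0.05 and the bar is the median, which runs from 0.01 in the cytosolic ribosome to 0.61 in respiratory chain and ATP synthase.

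The median change of the mitochondrial ribosome lay between that of the machinery it serves and that of the cytosolic ribosome. Of 41 nuclear genes of the respiratory chain and ATP synthase, taken by symbol pattern, 33 (80.5%) had a higher level in OXY. Among the named genes the share was 8.52%. The median change of the 41 was 0.61, and no gene passed towards PYL. The leading genes were NDUFB2 and NDUFB11 of complex I, with changes of 1.07 (SE 0.12) and 0.92 (SE 0.07), and ATP5L of ATP synthase, with 0.91 (SE 0.06). The median of these 41 genes exceeded that of the 37 ribosomal protein genes in each pig, by 0.18 to 0.40 (mean 0.30, SD 0.08, n = 7). Of 42 cytosolic ribosomal protein genes, none passed in either direction by limma and none had an unadjusted p under 0.05, with a median of 0.01. Mean log2 levels of these genes in OXY ran from 3.16 for RPS6 to 11.82 for RPS10, so some lay below the array medians given above. The median change of the 42 genes was above 0 in 3 of 7 pigs, against 7 of 7 for the mitochondrial ribosome. Gene groups measured on the same arrays share the pigs, so these differences are given without a test.

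Of the genes measured by several rows, MRPL15 and MRPL40 had 2 rows each with the same values. MRPS23 had 2 rows with changes of 0.21 and 0.18, of which neither passed. MRPS18B had 3 rows. The row described above and another hold the same values, and the third had a mean log2 of 2.42 and a change of 0.08 (adjusted p = 0.38), so it did not share the call. A further row carries the symbols of both MRPS28 and TPD52 and was not used.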

How the data were processed

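Total RNA of OXY and PYL of 7 pigs was measured on 14 arrays. The authors scanned the arrays and ran a Robust Multichip Analysis, and deposited linear intensities. Which normalization made them, and the software version, are not given in the sources used here. Values were log2-transformed and not normalized again. The number of arrays limits the precision.

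Rows were named from the platform annotation, which gives 1 symbol for 11939 rows, several for 416 and none for 15105. Each row was fitted with limma (version 3.58.1 in R 4.3.3) with the mucosa and the pig as terms, after the repeated-measures design of the methods, and the threshold was an adjusted p of 0.05 over all 27460 rows. The fit was checked on simulated data. A change is OXY minus PYL. The pig pairs the samples, as both mucosae come from 1 animal by the labels. Deviations of both arrays of a pig from their mucosa means correlated by 0.02 to 0.62 over rows. Measured from the means of its own array set, this was -0.03 to 0.16 in pigs 1 to 3 and 0.62, 0.23, 0.43 and -0.01 in pigs 4, 5, 6 and 7.

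Named with values are the genes past the threshold, those with the smallest change, and up to 3 of each related list. Levels in full are given for the 6 genes of each subunit with the smallest adjusted p. Other genes are named to account for all members, or for a list's exceptions. The genes and lists were chosen with earlier results of these data known. Lists were described by counts and medians, and no set was tested.

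Alternatives were no pig term, median centring, quantile normalization, leaving out the third of rows with the lowest mean, an intensity trend with robust prior, array weights, the methods' repeated-measures test, the mean of all rows of a symbol, leaving out each pig, leaving out pigs 4 and 7, and each array set alone.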

Additional observations from a re-analysis of the deposited data

Results flagged for a closer look

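A single pig stood apart from the other 6 by Dixon's test in 4 of 115 groups of 7 values, and chance alone flags about 1 in 20 groups. In each of the 4 it was pig 7. Its difference between OXY and PYL was 1.00 for MRPL2, against 0.37 to 0.62 in the other pigs, and 0.83 for MRPL13, against 0.08 to 0.34. The median difference over all 37 genes was 0.57 in pig 7, against 0.17 to 0.34, and over the 24 large subunit genes 0.66, against 0.18 to 0.38. Without pig 7, MRPL2 passed and MRPL13 did not, as with all pigs.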

How the results depend on the processing

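Of 666 changes of the 37 genes under 18 alternatives, 602 kept their direction and their side of the threshold, 46 no longer passed, 11 newly passed and 7 changed sign. Without the pig term (no replicate block), the counts were 326 rows higher in OXY and 150 in PYL, 0 of the 37 genes, 0 in either subunit, 6 respiratory chain and ATP synthase genes and 0 genes of the other mitochondrial lists (10 with the block). Within pigs 1 to 3 the counts were 665 and 562 rows, 1 of the 37 genes, 1 large and 0 small subunit genes, 15 respiratory chain genes and 1 gene of the other lists. Within pigs 4 to 7 they were 686 and 289 rows, 5 of the 37 genes, 4 large and 1 small, 21 and 4. Fewer pigs entered these fits. The methods' repeated-measures test gave 637 rows higher in PYL and 12 of the 37 genes higher in OXY. Leaving out 1 pig gave 11 to 13 of the 37 genes, 1386 to 1705 rows higher in OXY and 690 to 1232 in PYL, and 6 to 10 genes of the other lists (6 without pig 1, 4, 5 or 6). The 690 rows were without pig 6, and pigs 1 and 3 gave 784 and 787. Centring each array on its median gave 18 of the 37 genes and moved the median change of all rows from -0.01 to 0.04, and quantile normalization gave 13. The median change of the 37 genes stayed between 0.19 and 0.33, and the large minus the small subunit median between 0.09 and 0.14. Without pigs 4 and 7, 1 of the 37 genes was higher in PYL. The changes of sign were all of genes that had not passed, namely MRPL14 without pigs 4 and 7 (-0.078) and within pigs 1 to 3 (-0.097), MRPS34 (-0.027) and MRPS6 (0.023) within pigs 1 to 3, MRPS35 within pigs 4 to 7 (0.019), and MRPL14 and MRPL49 when 1 pig was left out, where MRPL14 ran from -0.026 (without pig 7) to 0.097 and MRPL49 from -0.026 (without pig 6) to 0.13. Where no value above shows it, the cause was not tested. The planned move of MRPS18A and MRPS30 to the large subunit, without MRPS36, was not run, as none of the 3 is among the genes analysed here.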
